A study of Mus musculus with 12 samples.

Results

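The glucocorticoid system of the mouse ischemic hemisphere was described through 9 genes, taken by symbol from the 39756 genes of a table of counts. They are the receptor genes Nr3c1 and Nr3c2, the enzyme gene Hsd11b1, and 6 genes that glucocorticoids are known to induce, namely Fkbp5, Sgk1, Tsc22d3, Zbtb16, Errfi1 and Pdk4. All 9 passed the filter on low counts, which kept 17558 genes. The samples were 12 male C57BL/6J mice aged 9 to 10 weeks, 4 in each of 3 groups. Sham mice had sham surgery and received saline. Vehicle mice had a transient middle cerebral artery occlusion (tMCAO) of 45 min, followed by reperfusion, and received saline. LJP mice had the same occlusion and received Laminaria japonica polysaccharide (LJP), a sulfated polysaccharide from a brown seaweed. By the study's methods, saline or LJP was given daily by gavage for 14 days before surgery and continued after it. The study tried 3 doses of LJP and took the middle dose into its later experiments, without naming the dose for the sequenced mice. Their time of collection, the hour of the day included, was not given in the sources used here, and no hormone was measured in these data.

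Corticosterone, the main glucocorticoid of the mouse, is released by the adrenal cortex in a daily rhythm and in stress. In brain cells it binds the mineralocorticoid receptor with high affinity and the glucocorticoid receptor with lower affinity. The bound receptor leaves its chaperones, enters the nucleus and acts on target genes at glucocorticoid response elements, which are inverted repeats of a short hexamer. The question asked of each comparison was how the receptors and their targets differed with occlusion (Vehicle against Sham), with LJP after occlusion (LJP against Vehicle), and between treated occluded mice and mice without occlusion (LJP against Sham). The first 2 comparisons share the Vehicle mice, the first and the last share the Sham mice, and the last 2 share the LJP mice.

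Total counts lay between 17960353 and 22216315 per mouse, and all 12 mice carry the same batch label. Levels are given as counts scaled to library size (CPM) after TMM scaling, and as the same per kilobase of gene model (RPKM) where genes are compared. A gene is said to have risen or fallen when edgeR's quasi-likelihood test, fitted to all 12 mice, gave a Benjamini-Hochberg adjusted p below 0.05 over all 17558 genes. Beyond that, the labels give no more than a number for each replicate, so the p-values measure the spread between these samples. The markers fit brain tissue: the summed level of 5 neuron markers was 4518 to 5099 CPM in Sham, 2384 to 3986 in Vehicle and 3963 to 4624 in LJP. The groups also differed in other markers. The summed level of 5 endothelial markers was 187.5 to 207.2 CPM in Sham, 268.1 to 1270 in Vehicle and 192.8 to 244.6 in LJP. That of 5 airway and lung markers was 9.37 to 13.5 CPM in Sham and 8.85 to 10.8 in Vehicle, but 0.358 to 0.669 in LJP, where 3 of the 5 were at 0 in every mouse.

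In the Vehicle group 7 of the 9 genes passed the test against Sham, where 39.9% of all genes did. Of the 6 responsive genes 5 rose, against 22.7% of all genes, and both receptor genes fell, against 17.3% of all genes. Between LJP and Vehicle none of the 9 passed the test, where 0.0228% of all genes did, 4 genes of which 3 were airway and lung markers. Whether what sets the LJP libraries apart in these markers also bears on the 9 genes was not tested. Between LJP and Sham 2 of the 9 passed, against 4.75% of all genes: Zbtb16 rose (3.85% of all genes did) and Nr3c1 fell (0.9%). With only the 8 mice of these groups in the fit, 5 of the 9 and 23.8% of all genes passed. The order of the genes by level is described first, then the receptors, the enzyme and the responsive genes.

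**Figure D1:**
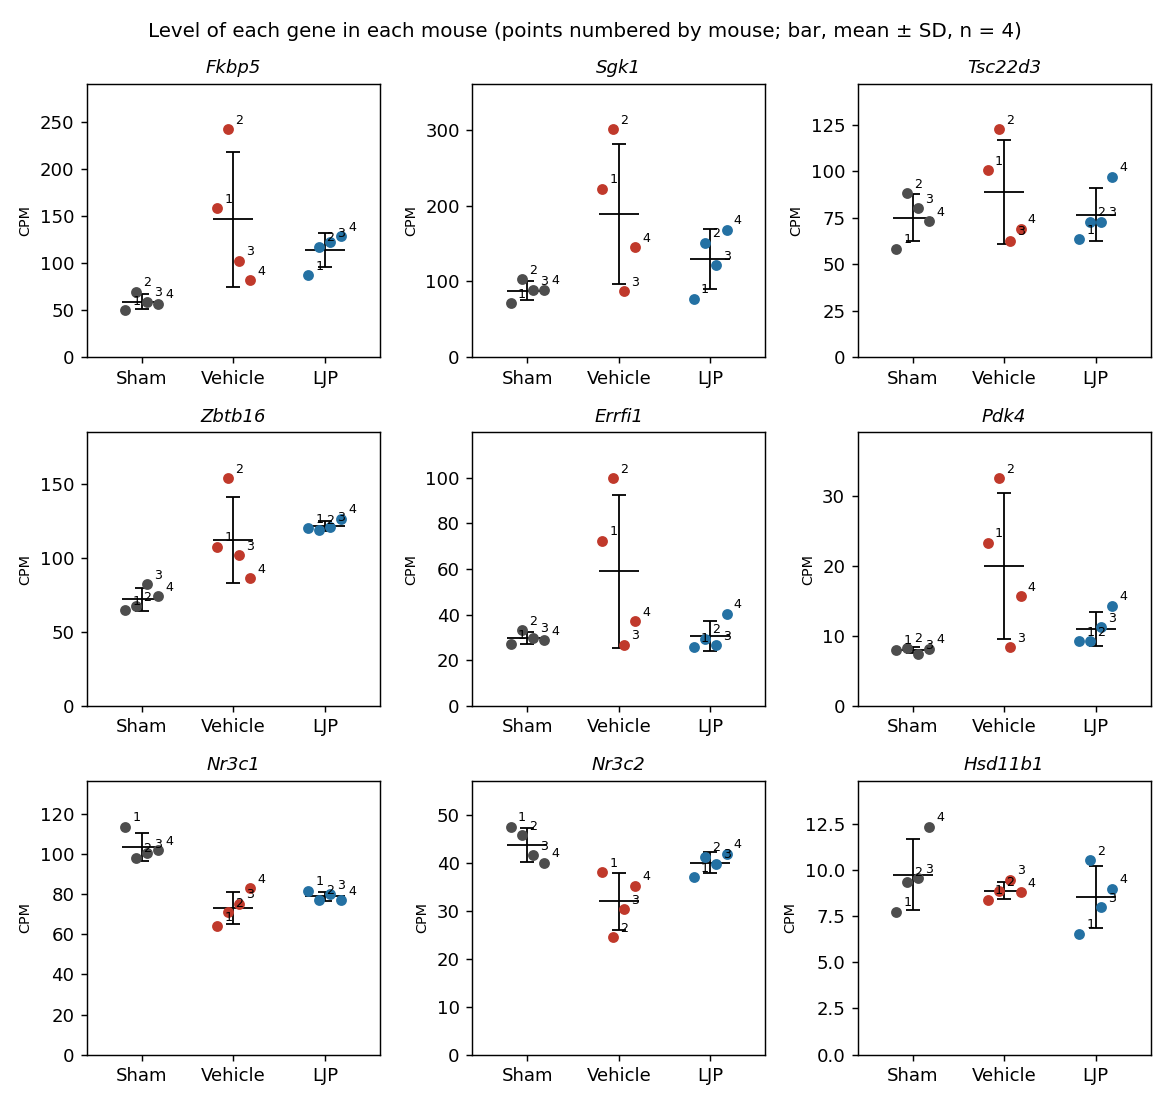
Level of each of the 9 genes in each mouse, in CPM on a linear axis from 0, by group; points carry the mouse number and bars show the mean and SD of 4 mice. Vehicle mice 1 and 2 sit highest in their group in all 6 responsive genes, while the receptor genes lie lower in all Vehicle mice than in any Sham mouse.

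Per length, the Sham hemispheres held most Sgk1 RNA, 21.1 ± 3.12 RPKM (SD, n = 4), then Tsc22d3 with 17.9 ± 3.03 and Fkbp5 with 15.2 ± 2.06. The ranges of neighbouring genes among these overlapped. Nr3c1 followed with 11.4 ± 0.758 RPKM and lay apart from both its neighbours, then Zbtb16 with 9.27 ± 1.01 and Errfi1 with 8.85 ± 0.775, which overlapped. Hsd11b1 with 5.90 ± 1.16 RPKM and Nr3c2 with 5.46 ± 0.437 overlapped as well, and Pdk4 was lowest with 2.31 ± 0.113, below all of Nr3c2. In Vehicle the order by mean level was Sgk1, Fkbp5, Tsc22d3, Errfi1, Zbtb16, Nr3c1, Pdk4, Hsd11b1 and Nr3c2, and only the steps from Zbtb16 to Nr3c1 and from Hsd11b1 to Nr3c2 had ranges that did not overlap. In LJP it was Sgk1, Fkbp5, Tsc22d3, Zbtb16, Errfi1, Nr3c1, Hsd11b1, Nr3c2 and Pdk4, with such gaps below Zbtb16, Nr3c1 and Nr3c2.

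Nr3c1 encodes the glucocorticoid receptor. Its level was 113.5, 98.1, 100.3 and 101.8 CPM in the 4 Sham mice. It was 63.9, 70.9, 75.3 and 83.0 CPM in the Vehicle mice, all below the lowest Sham mouse. It was 81.6, 77.2, 80.0 and 77.0 CPM in the LJP mice, which lay inside the Vehicle range and also below every Sham mouse. Groups without overlap in the lower direction were found for 18.8% of all genes in Vehicle against Sham and for 12% in LJP against Sham. Nr3c1 fell in Vehicle by 0.50 on the log2 scale (SE 0.08, edgeR adjusted p = 0.000981), and it held this call when any single mouse was left out. Against Sham it also fell in LJP, by 0.39 (SE 0.08, edgeR adjusted p = 0.0167). That call was lost without Sham mouse 1, Sham mouse 3 or LJP mouse 3, with edgeR adjusted p of 0.0751, 0.0503 and 0.0549. Between LJP and Vehicle Nr3c1 differed by 0.11 (95% interval -0.07 to 0.29).

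Nr3c2, at chr8:76898083-77245012 on the plus strand in GRCm38, encodes the mineralocorticoid receptor. Its level was 47.5, 45.8, 41.5 and 40.0 CPM in Sham, 38.0, 24.5, 30.3 and 35.2 CPM in Vehicle, and 37.0, 41.3, 39.8 and 41.9 CPM in LJP. Every Vehicle mouse lay below every Sham mouse, with Vehicle mouse 2 lowest of the 12, while the LJP mice overlapped with both other groups. Nr3c2 fell in Vehicle by 0.45 on the log2 scale (SE 0.12, edgeR adjusted p = 0.0113). In LJP it was 0.32 above Vehicle (SE 0.12, 95% interval 0.06 to 0.58), with an unadjusted p of 0.02 and an adjusted p of 0.112 in edgeR. It was 0.13 below Sham (95% interval -0.39 to 0.13 for LJP minus Sham, edgeR adjusted p = 0.621). Neither receptor gene reached the absolute log2 fold change of 0.58 that the study's own thresholds require, in any comparison.

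Since both receptors are measured in each mouse, their balance was compared within mice, as the log2 ratio of the Nr3c1 count to the Nr3c2 count. The ratio was 1.26, 1.10, 1.27 and 1.35 in Sham, 0.75, 1.53, 1.31 and 1.24 in Vehicle, and 1.14, 0.90, 1.01 and 0.88 in LJP. Vehicle mice 1 and 2 held the lowest and the highest ratio of the 12, so the Vehicle range covered both other groups. The group means were 1.24 ± 0.10 in Sham, 1.21 ± 0.33 in Vehicle and 0.98 ± 0.12 in LJP (SD, n = 4). No comparison passed the exact two-sided permutation test, in which the smallest p that 4 against 4 mice allow is 0.0286. LJP against Sham gave p = 0.0571 (0.171 adjusted over the 3 comparisons), LJP against Vehicle p = 0.257 and Vehicle against Sham p = 0.83, by the same exact test. The difference between LJP and Vehicle rested on single Vehicle mice: it was -0.22 with all 8 mice, -0.38 without Vehicle mouse 1 (unadjusted exact p = 0.0286) and -0.12 without Vehicle mouse 2 (unadjusted exact p = 0.486).

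Hsd11b1, at chr1:193221640-193264045 on the minus strand, encodes the enzyme that regenerates active corticosterone from its inert form inside cells. It had 7.73, 9.37, 9.54 and 12.3 CPM in Sham, 8.395, 8.85, 9.47 and 8.78 CPM in Vehicle, and 6.54, 10.5, 7.995 and 8.97 CPM in LJP. The 3 groups overlapped, and the Vehicle mice lay within the Sham range. The log2 difference was -0.14 in Vehicle against Sham (95% interval -0.50 to 0.23), -0.06 in LJP against Vehicle (-0.42 to 0.30) and -0.20 in LJP against Sham (-0.56 to 0.17). H6pd, which makes the cofactor that this enzyme uses in the endoplasmic reticulum, rose in Vehicle by 1.91 on the log2 scale (SE 0.40, edgeR adjusted p = 0.00321), from 11.5 to 12.9 CPM in Sham to between 20.8 and 93.6. In LJP it lay between 10.98 and 23.1 CPM, 1.53 below Vehicle on the log2 scale (edgeR adjusted p = 0.0678). Vehicle mouse 2 held the highest level: without it LJP minus Vehicle was -0.91 for H6pd, while without Vehicle mouse 3 or 4 the difference passed the test (edgeR adjusted p of 0.012 and 0.031).

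**Figure D2:**
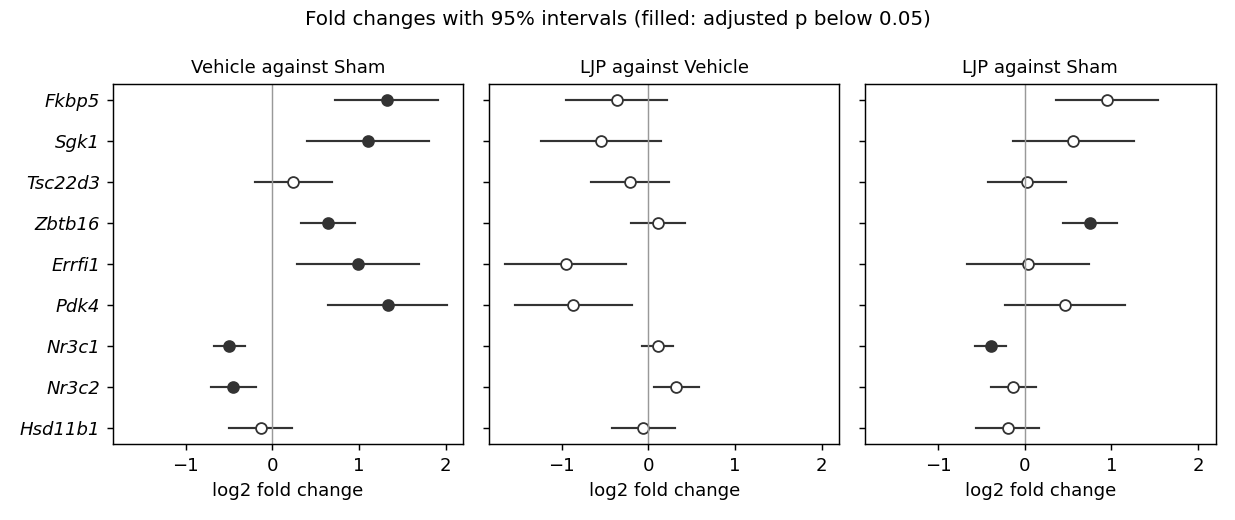
Log2 fold changes of the 9 genes in the 3 comparisons with 95% intervals from edgeR; filled points passed an adjusted p of 0.05. The 5 responsive genes that rose in Vehicle lie between 0.64 and 1.33, the receptors lie at -0.50 and -0.45, and no point is filled for LJP against Vehicle.

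Among the responsive genes, Fkbp5 encodes a co-chaperone that lowers the affinity of the glucocorticoid receptor for its ligand and is itself induced by that receptor. It lies at chr17:28398753-28486149 on the minus strand. Fkbp5 had 50.2, 69.4, 59.1 and 56.8 CPM in Sham, 158.8, 242.8, 102.8 and 82.1 CPM in Vehicle, and 87.4, 117.7, 122.4 and 128.5 CPM in LJP. All occluded mice lay above all Sham mice, and Vehicle mice 1 and 2 lay above all LJP mice. Groups without overlap in the higher direction were found for 20.7% of all genes in Vehicle against Sham and for 12.9% in LJP against Sham. Fkbp5 rose 2.49-fold in Vehicle, a log2 fold change of 1.32 (SE 0.27, edgeR adjusted p = 0.00313). In LJP it was 0.95 above Sham on the log2 scale (SE 0.27) without passing the test (unadjusted p = 0.00402, adjusted p = 0.069, edgeR), though it met the study's thresholds on the edgeR values. It passed without Vehicle mouse 2, 3 or 4, with edgeR adjusted p of 0.00508, 0.0493 and 0.0309, and in DESeq2, with an adjusted p of 0.0103. LJP minus Vehicle was -0.36 (95% interval -0.95 to 0.22), and -0.01 without Vehicle mouse 2.

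Sgk1 encodes a kinase that acts on ion channels and transporters and is a target of both receptors. It lies at chr10:21882184-21999903 on the plus strand. Of the 7 genes with a promoter window in the RefSeq table of GRCm38.p6, it is the only one with a complete palindromic response element, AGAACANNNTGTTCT, which reads the same on both strands. The table holds 32851 windows, from 250 bases before to 50 bases after each start, and 3 of them (0.00913%) contain these letters. The bases just before the Sgk1 start at 21993890, at chr10:21993640-21993889 on the plus strand, are shown because they carry that element, which is in capitals.
Sgk1 promoter: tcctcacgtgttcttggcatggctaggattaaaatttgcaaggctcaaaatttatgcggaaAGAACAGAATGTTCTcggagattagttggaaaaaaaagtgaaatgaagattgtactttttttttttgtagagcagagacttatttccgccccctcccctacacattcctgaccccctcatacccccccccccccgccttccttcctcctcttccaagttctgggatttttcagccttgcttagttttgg
The element, at chr10:21993701-21993715, begins 189 bases before that start. In the GENCODE vM21 annotation it touches no exon and lies inside 5 longer transcripts of Sgk1. A single hexamer, AGAACA on either strand, was more common: it was found in 4 of the 15 windows of these genes (26.7%) and in 19% of all windows. By gene it was found in 2 of the 7 (28.6%), Sgk1 and Tsc22d3, and in 21.3% of all genes. Of the 20 further induced genes described below, 18 had a window, with 23 windows in all. None of these windows held the complete element, and 17.4% held the hexamer. Only these exact letters within the windows were searched, so elements with other letters or further away were not looked for. The match is a description of the sequence, and binding was not measured.

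Sgk1 had 71.1, 102.7, 88.2 and 89.2 CPM in Sham, 222.9, 301.4, 87.1 and 145.6 CPM in Vehicle, and 77.4, 151.4, 121.7 and 168.2 CPM in LJP. Vehicle mouse 3 lay within the Sham range, so the groups overlapped although the other Vehicle mice were above all Sham mice. Sgk1 rose 2.16-fold in Vehicle (log2 1.11, SE 0.32, edgeR adjusted p = 0.0172). The call was lost without Sham mouse 1 (edgeR adjusted p = 0.0536). LJP was 0.55 below Vehicle (95% interval -1.24 to 0.15 for LJP minus Vehicle) and 0.56 above Sham (-0.14 to 1.26), and neither difference passed the test. Without Vehicle mouse 2, LJP minus Vehicle was -0.23 for Sgk1.

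Zbtb16, at chr9:48651797-48836225 on the minus strand, encodes a zinc finger repressor (PLZF) that glucocorticoids induce in many tissues. It had 64.8, 67.4, 82.3 and 74.2 CPM in Sham, 107.5, 154.1, 101.7 and 86.4 CPM in Vehicle, and 120.1, 119.2, 121.3 and 126.5 CPM in LJP. Both occluded groups lay above all Sham mice, and the 4 LJP mice lay within the Vehicle range, with an SD of 3.24 CPM against 29.2 in Vehicle. Zbtb16 rose by 0.64 on the log2 scale in Vehicle (SE 0.15, edgeR adjusted p = 0.00488) and by 0.75 in LJP against Sham (SE 0.15, edgeR adjusted p = 0.0101). It was the single responsive gene with a higher mean in LJP than in Vehicle, by 0.11 (95% interval -0.20 to 0.43), and by 0.30 without Vehicle mouse 2. Both calls held when any single mouse was left out.

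Pdk4, at chr6:5483351-5496278 on the minus strand, encodes a kinase that inactivates pyruvate dehydrogenase and so limits the use of glucose. It had 8.02, 8.28, 7.40 and 8.14 CPM in Sham, 23.3, 32.6, 8.34 and 15.7 CPM in Vehicle, and 9.22, 9.20, 11.3 and 14.3 CPM in LJP. Every occluded mouse exceeded every Sham mouse, Vehicle mouse 3 by less than 0.1 CPM over the highest of them. Pdk4 rose 2.52-fold in Vehicle (log2 1.33, SE 0.32, edgeR adjusted p = 0.00637). LJP was 0.87 below Vehicle on the log2 scale (95% interval -1.54 to -0.19 for LJP minus Vehicle), with an unadjusted p of 0.0161 and an adjusted p of 0.103 in edgeR, and LJP minus Vehicle was -0.53 without Vehicle mouse 2. LJP was 0.47 above Sham (95% interval -0.22 to 1.15, edgeR adjusted p = 0.477).

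Errfi1, at chr4:150853796-150868889 on the plus strand, encodes an inhibitor of the EGF receptor. It had 27.1, 33.2, 29.8 and 28.8 CPM in Sham, 72.4, 99.8, 26.8 and 37.1 CPM in Vehicle, and 25.8, 29.5, 26.5 and 40.3 CPM in LJP. Vehicle mice 1, 2 and 4 lay above all Sham mice and mouse 3 below all of them. Errfi1 rose 1.99-fold in Vehicle (log2 0.99, SE 0.32, edgeR adjusted p = 0.0283). This call was the least stable of the 7: it was lost without Sham mouse 1, 3 or 4 and without Vehicle mouse 1 or 2, with edgeR adjusted p of 0.0604 to 0.0905, and the log2 fold change was 0.61 without Vehicle mouse 2. It was also lost with only the 8 mice compared in the fit (adjusted p = 0.0616). LJP was 0.95 below Vehicle (95% interval -1.65 to -0.25 for LJP minus Vehicle), with an unadjusted p of 0.0115 and an adjusted p of 0.0921 in edgeR, and 0.04 above Sham (-0.66 to 0.74). Without Vehicle mouse 2, LJP minus Vehicle was -0.58.

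Tsc22d3, at chrX:140539528-140600522 on the minus strand, encodes GILZ, a leucine zipper protein through which glucocorticoids restrain inflammatory signalling. It had 58.3, 88.1, 80.1 and 72.9 CPM in Sham, 100.3, 122.5, 62.6 and 68.9 CPM in Vehicle, and 63.4, 72.9, 72.8 and 96.9 CPM in LJP. Vehicle mice 1 and 2 lay above all Sham mice, and mice 3 and 4 lay within the Sham range. The log2 difference was 0.24 in Vehicle against Sham (95% interval -0.20 to 0.69, edgeR adjusted p = 0.365), -0.21 in LJP against Vehicle (-0.66 to 0.23) and 0.03 in LJP against Sham (-0.42 to 0.48). It was thus the responsive gene without a call in any comparison, and its interval leaves room for a difference of the size seen for Zbtb16.

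**Figure D3:**
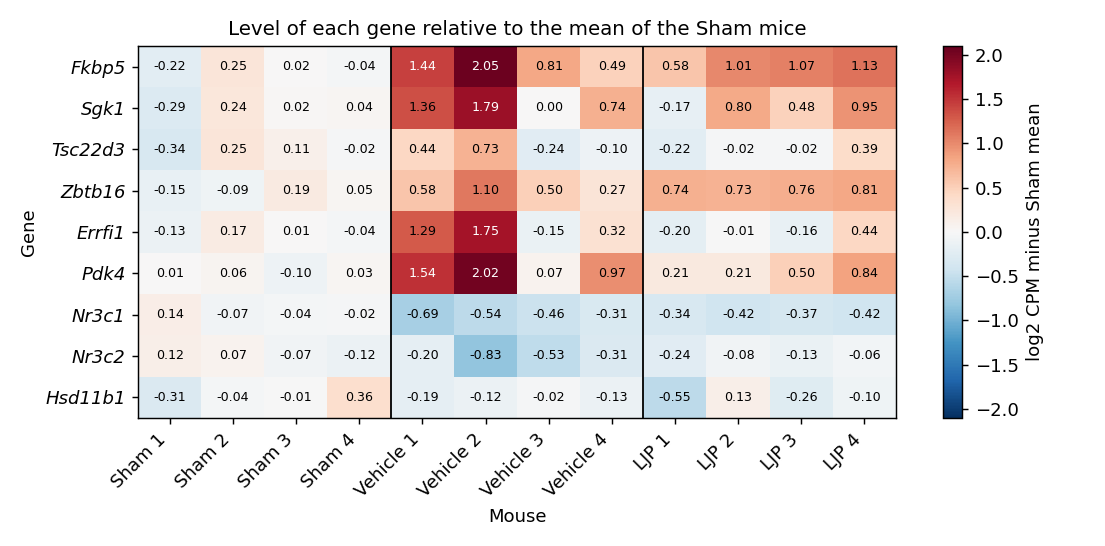
Log2 CPM of each gene (rows) in each mouse (columns) minus the mean of the 4 Sham mice; red is higher and blue lower, and cells carry their value. Vehicle mouse 2 has the highest value of its group in all 6 responsive rows, and Vehicle mouse 3 is near 0 for Sgk1, Errfi1 and Pdk4.

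The 6 responsive genes ranked the mice of a group much alike. In Vehicle, mouse 2 was highest for 6 of 6 and mouse 1 followed in each, while the lowest was mouse 3 for 4 genes and mouse 4 for 2. In LJP, mouse 4 was highest for 6 of 6, and in Sham mouse 2 was highest for 5. These ranks are no independent observations, since the genes were read in the same libraries. Over all genes tested, Vehicle mouse 2 was highest for 36%, LJP mouse 4 for 24.7% and Sham mouse 2 for 25.3%. The mean log2 difference of the 6 genes from the Sham mean was 1.11, 1.57, 0.17 and 0.45 in Vehicle mice 1 to 4, and 0.16, 0.45, 0.44 and 0.76 in LJP mice 1 to 4. Vehicle mice 1 and 2 thus exceeded every LJP mouse, while mice 3 and 4 lay within the LJP range.

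The same Vehicle mice stood apart in markers of other cell types. Endothelial markers summed to 616.3, 1270, 268.1 and 322.6 CPM in Vehicle mice 1 to 4. Of the 5, Cldn5, Pecam1 and Cdh5 rose in Vehicle, Flt1 had a log2 difference of 0.59 (edgeR adjusted p = 0.0581) and Slco1a4 one of -0.20 (0.366). The leukocyte markers summed to 135.6, 53.7, 11.4 and 16.8 CPM in the same order, against 2.07 to 3.63 in Sham. Most of the sum in mouse 1 was S100a8 and S100a9, at 52.6 and 62.1 CPM, while Ptprc and Ccr2 were higher in mouse 2. The meningeal fibroblast markers reached 946.6 CPM in Vehicle mouse 2 against 126.9 to 235.5 in the other Vehicle mice and 119.8 to 150 in Sham. Of these 5, 4 had log2 fold changes above 0 in Vehicle against Sham, and Igf2 was lower by 0.51. Neuron markers were lowest in Vehicle mouse 2, at 2384 CPM. Astrocyte markers summed to 2012 and 1964 CPM in Vehicle mice 1 and 2, against 3170 and 3263 in mice 3 and 4 and 3441 to 3958 in Sham. Most of this sum was Slc1a2, at 1255, 1153, 2296 and 2356 CPM in Vehicle mice 1 to 4. Gja1 and Aqp4 were also lowest in mice 1 and 2, and Slc1a3 overlapped. Aldh1l1 ran the other way, at 140.9, 168.3, 117.2 and 130.8 CPM, against 59.3 to 68.1 in Sham. The median log2 fold change of the 5 in Vehicle against Sham was 0.11. Choroid plexus markers summed to 21.6 and 19.6 CPM in Vehicle mice 1 and 2 and to 529.4 and 485 in mice 3 and 4. They were similarly low in Sham mouse 1 and LJP mice 1, 2 and 4, at 21.8 to 31.8 CPM, so this split ran through all 3 groups. Microglia markers summed to 374.3, 687.6, 731.4 and 771.5 CPM in Vehicle mice 1 to 4, with mouse 1 well below the others, to 455.4 to 785.7 in LJP and to 262.3 to 267.9 in Sham. The part of these cell types in the levels of the 9 genes was not tested, and in RNA of a whole hemisphere fewer cells of a type and less RNA per cell cannot be told apart. Without Vehicle mouse 2, the log2 fold changes in Vehicle against Sham were 0.95 for Fkbp5, 0.98 for Pdk4, 0.78 for Sgk1, 0.44 for Zbtb16 and 0.04 for Tsc22d3.

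For LJP against Vehicle, 3 of the 9 genes (Errfi1, Pdk4 and Nr3c2) had an unadjusted p below 0.05, as had 29.7% of all genes, so that the share among the 9 was near that of the transcriptome. Of the 6 responsive genes 5 had a lower mean in LJP. DESeq2 called 2 of them, Errfi1 (adjusted p = 0.0321) and Pdk4 (adjusted p = 0.0494), and 12.6% of the genes it tested. Without Vehicle mouse 3 edgeR called the same pair, with adjusted p of 0.0136 and 0.0118 and log2 fold changes of -1.19 and -1.11, and 21.6% of all genes. Without Vehicle mouse 4 it called Errfi1 (adjusted p = 0.046) and 11.7% of all genes. Without Vehicle mouse 2 it called neither, with log2 fold changes of -0.58 for Errfi1 and -0.53 for Pdk4. Applied to the edgeR values, the study's thresholds were met by none of the 9 in this comparison, against 6.97% of all genes. They were met by 5 in Vehicle against Sham (21.7% of all genes), the responsive genes other than Tsc22d3, and by Fkbp5 and Zbtb16 in LJP against Sham (5.9%). The study used these thresholds with DESeq2, and that pairing was not run here.

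The wider target set was read from 20 further genes that glucocorticoids induce in brain or other tissues. This list was chosen with earlier results of these data known, so its counts describe these genes only. In Vehicle 13 of the 20 rose and none fell, where 22.7% of all genes rose and 17.3% fell. The median log2 fold change was 0.65 against 0 for all genes. Some of the 13 rises depended on single mice. With each of the 12 mice left out in turn, Klf15 did not pass in 10 cases, Ddit4 in 6 and Arrdc2 in 5. Rhob and Sult1a1 did not pass in 3 cases each, and the rest of the 13 passed every time. The smallest p belonged to Cebpd, a C/EBP transcription factor of the acute phase, to Plin4, a lipid droplet coat protein, and to Cdkn1a, the cell cycle inhibitor p21. Cebpd rose from between 4.21 and 6.17 CPM in Sham to 154.5, 158.7, 30.6 and 48.2 CPM in Vehicle, a log2 fold change of 4.15 (SE 0.51, edgeR adjusted p = 0.000181). Plin4 rose from between 5.71 and 11.01 CPM to 63.8, 62.7, 33.7 and 23.4 CPM (log2 2.48, SE 0.38, edgeR adjusted p = 0.000614). Cdkn1a rose by 2.61 (SE 0.42, edgeR adjusted p = 0.000775). In each of these genes all Vehicle mice exceeded all Sham mice, with mice 1 and 2 highest.

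The 7 genes of that list that did not pass the test in Vehicle include textbook targets. The clock gene Per1 differed from Sham by -0.01 on the log2 scale (edgeR adjusted p = 0.958), and the Krüppel-like factors Klf9 and Klf13 by -0.15 (0.229) and -0.02 (0.84). The phosphatase gene Dusp1 differed by 0.54 (0.137), Tiparp by 0.64 (0.0813), Mfsd2a by 0.32 (0.075) and Bcl6 by 0.11 (0.509). Leaving out single Vehicle mice brought a call for Dusp1 (without mouse 3, edgeR adjusted p = 0.0274), Tiparp (without mouse 3 or 4, 0.0165 and 0.0354), Mfsd2a (without mouse 4, 0.0371) and Bcl6 (without mouse 2, 0.0371). Many of the 20 are also induced by other signals, as are the 6, and which signal acted was not tested.

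**Figure D4:**
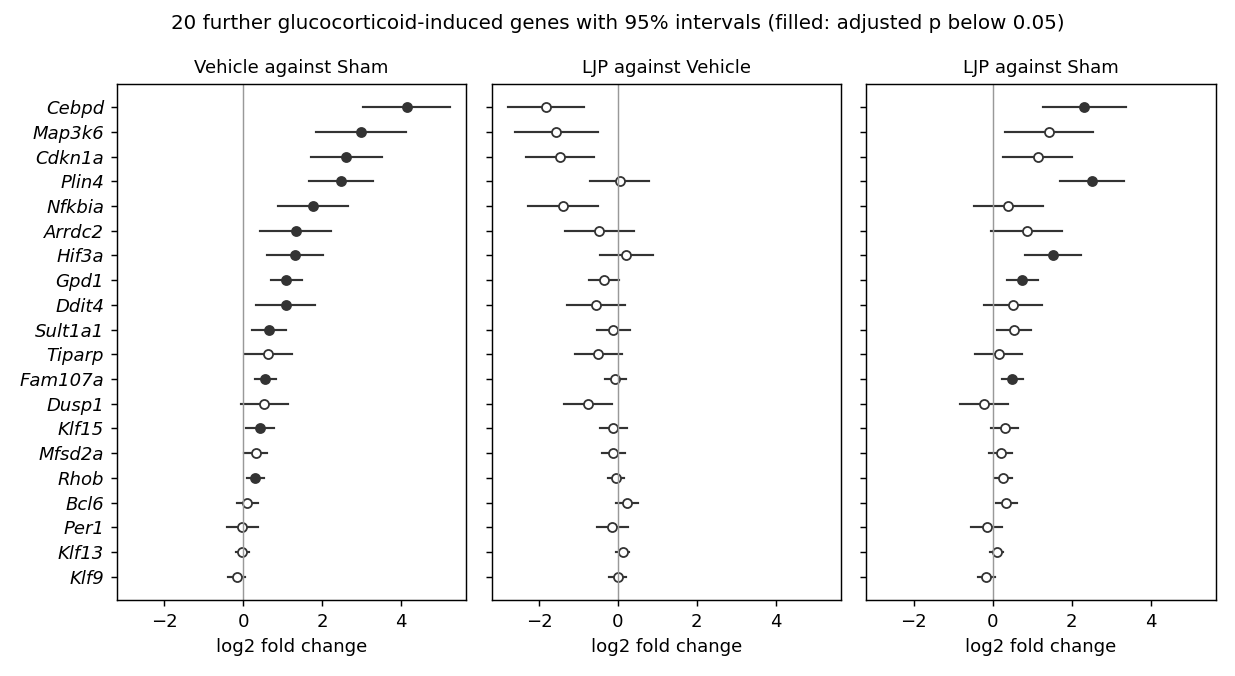
Log2 fold changes with 95% intervals for 20 further glucocorticoid-induced genes in the 3 comparisons, sorted by Vehicle against Sham; filled points passed an adjusted p of 0.05. In Vehicle 13 are filled, from Rhob at 0.31 to Cebpd at 4.15, and in LJP against Sham 5 are filled.

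In LJP against Vehicle none of the 20 passed the test, 5 had an unadjusted p below 0.05, a share near the 29.7% of all genes, and the median log2 fold change was -0.13 against 0.00 for all genes. Cebpd had the smallest p (log2 -1.83, SE 0.45, edgeR adjusted p = 0.0678), then Cdkn1a (-1.47, SE 0.40, 0.068) and Nfkbia, an inhibitor of NF-kappaB (-1.39, SE 0.40, 0.0717). Without Vehicle mouse 3 or 4 these 3 passed the test, with edgeR adjusted p of 0.00879 and 0.031 for Cebpd, 0.0128 and 0.031 for Cdkn1a, and 0.0107 and 0.0351 for Nfkbia. Without Vehicle mouse 2 the difference was -0.91 for Nfkbia. On the edgeR values the study's thresholds were met by 4 of the 20, all lower in LJP (Cebpd, Cdkn1a, Nfkbia and Map3k6), and by 6.97% of all genes. In Vehicle against Sham they were met by 10 of the 20 (21.7% of all genes), all higher, and in LJP against Sham by 4 (5.9%), all higher. Against Sham 5 of the 20 rose in LJP, where 3.85% of all genes did, with a median of 0.44. These were Plin4 by 2.52, Cebpd by 2.32, Hif3a by 1.54, the glycerol-3-phosphate dehydrogenase gene Gpd1 by 0.76 and Fam107a by 0.49. Plin4 held its call when any single mouse was left out, while Cebpd lost it in 5 of 12 such fits, Hif3a in 4, Gpd1 in 5 and Fam107a in 8. Plin4 had 22.6, 64.3, 54.7 and 47.9 CPM in LJP, a range that covered all 4 Vehicle mice, and its LJP minus Vehicle difference was 0.04 (SE 0.35). Hif3a had 12.1, 25.2, 16.5 and 21.7 CPM in LJP and 20.5, 25.3, 8.94 and 9.92 CPM in Vehicle, a difference of 0.22 (SE 0.31).

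The machinery around the receptors was read from 2 lists of 10, to be held against the 22.7% of all genes that rose and the 17.3% that fell in Vehicle. Of the chaperones and co-chaperones 3 fell in Vehicle and none rose, with a median log2 fold change of -0.11, and a share of 3 in 10 is not far from that of all genes. They were Ppid by 0.49 (SE 0.15, edgeR adjusted p = 0.0202), Hsp90aa1 by 0.31 (SE 0.08, 0.0122) and Stip1 by 0.27 (SE 0.09, 0.0379). With each of the 12 mice left out in turn, Stip1 did not pass in 7 cases, and Ppid lost it without Sham mouse 1 (edgeR adjusted p = 0.0556). Of the coregulators 5 fell, 1 rose and the median was -0.22. The falls with the smallest p were those of Ncor1 by 0.34 (SE 0.06, 0.00197), Ncoa1 by 0.39 (SE 0.09, 0.00447) and Med1 by 0.34 (SE 0.08, 0.00723). In LJP against Vehicle none of the 20 passed the test. The smallest p there belonged to Bag1, Hsp90ab1 and Ppid among the chaperones (edgeR adjusted p of 0.18, 0.231 and 0.231), and to Ncor1, Ncoa1 and Med1 among the coregulators (0.135, 0.152 and 0.206). None passed against Sham either.

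Of 10 genes of corticosteroid synthesis, inactivation and transport 6 were abundant enough to be tested. Besides H6pd, Abcb1b, an efflux transporter gene of which corticosteroids are substrates, rose in Vehicle by 1.84 on the log2 scale (SE 0.31, edgeR adjusted p = 0.00115). Cyp11a1, the side chain cleavage enzyme of steroid synthesis, fell by 0.72 (SE 0.26, edgeR adjusted p = 0.0455). The call of Cyp11a1 was lost in 11 of the 12 fits that left out a mouse (edgeR adjusted p up to 0.1). Neither gene differed by the test between LJP and Vehicle, where Abcb1b gave -0.83 (edgeR adjusted p = 0.103) and its paralogue Abcb1a -0.55 (0.167). Vehicle mouse 2 stood apart in both, with 18.7 CPM of Abcb1b against 7.17 to 7.71 in the other Vehicle mice and 95.8 CPM of Abcb1a against 38.0 to 42.8. Without it the differences were -0.37 for Abcb1b and -0.11 for Abcb1a, and without Vehicle mouse 3 that of Abcb1b passed the test (edgeR adjusted p = 0.0476). Hsd11b2, Serpina6, Cyp21a1 and Cyp11b1 did not pass the filter on low counts.

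The genes whose levels ran closest to those of Nr3c1, Fkbp5 and Zbtb16 were found by the root mean square of the differences, over the 12 mice, between their log2 levels relative to Sham. Those nearest to Nr3c1 were Oga (0.06 log2 units), Mga (0.07) and Asb3 (0.08), with log2 fold changes in Vehicle of -0.45, -0.46 and -0.51. Those nearest to Fkbp5 were 4930523C07Rik (0.24), Acer2 (0.25) and Pnpla2 (0.25), with 1.31, 1.64 and 1.53. Those nearest to Zbtb16 were Cfap100 (0.16), Rhou (0.19) and Ltbp1 (0.19), with 0.54, 0.69 and 0.83.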

How the data were processed

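RNA from the ischemic hemispheres of 12 mice was sequenced as paired-end poly(A) libraries. The authors deposited raw counts per gene and mouse. The submitters' processing notes name featureCounts, DESeq2 and the builds GRCm39 and mm10. The table's positions of all 9 genes fall on the GENCODE vM21 genes of the same name (GRCm38). The strand setting and the treatment of shared reads were not given in the sources used here. Genes overlapping the 9 held at most 1.54% of their counts (Gm10649 at Nr3c2).

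Counts were fitted with edgeR 4.0.16 (limma 3.58.1) in R 4.3.3: filterByExpr, TMM factors, a coefficient per group over all 12 mice, and the quasi-likelihood test. Intervals are at 95%. Receptor ratios were log2 of counts plus 0.5, tested by exact two-sided permutation. Alternatives were DESeq2 1.42.0, RLE or no scaling factors, no filter, 2-group fits, the study's thresholds on the edgeR values (absolute log2 fold change over 0.58, unadjusted p below 0.01), a replicate block, a pseudocount of 5 for the ratio and leaving out each mouse. A floor of 3 counts, the limit that a count of 0 allows, equals 0.129 to 0.173 CPM, and counting intervals cover counting error only. No 2 libraries of a group agreed within sampling noise. Figures were drawn with matplotlib 3.10.9.

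Named were all 9 genes, in each pathway list the 3 genes with the smallest p in Vehicle against Sham and in LJP against Vehicle, and the 3 nearest genes of the 3 members with the smallest p in Vehicle against Sham. Other list genes were named after their values were seen, and some list genes are not reported here. The members and lists were chosen with earlier results of these data known. RefSeq promoter windows (GRCm38.p6) matched 7 of the 9 genes, all but Nr3c1 and Zbtb16.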

Additional observations from a re-analysis of the deposited data

How the results depend on the processing

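Of 486 recomputed log2 fold changes of the 9 genes, 456 kept their direction and their side of the threshold, 12 lost the call, 13 gained one and 5 changed sign. The sign changes were those of Tsc22d3 in LJP against Sham without Sham mouse 1 (-0.07) or LJP mouse 4 (-0.10), of Errfi1 in LJP against Sham without the same mice (-9e-04 and -0.13), and of Hsd11b1 in LJP against Vehicle without LJP mouse 1 (0.0488). Leaving out single mice, these values ranged from -0.10 to 0.12 for Tsc22d3, -0.13 to 0.11 for Errfi1 and -0.18 to 0.0488 for Hsd11b1. None of these was a called value. The Nr3c1 to Nr3c2 ratio in Vehicle against Sham changed sign without Vehicle mouse 1 (0.12). Leaving out single mice moved the number of genes called among the 9 between 5 and 7 in Vehicle against Sham, between 0 and 2 in LJP against Vehicle and between 1 and 3 in LJP against Sham. For the ratio the range was -0.14 to 0.12 in Vehicle against Sham, -0.38 to -0.12 in LJP against Vehicle and -0.31 to -0.23 in LJP against Sham. With DESeq2 the count in LJP against Vehicle was 2. With only the 8 mice of LJP and Sham in the fit it was 5 for that comparison (Fkbp5, Sgk1, Zbtb16, Pdk4 and Nr3c1). The cause was not tested.

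With the replicate number as a block, 1 of the 9 genes was called in LJP against Sham, Nr3c1 being lost (adjusted p = 0.0604), and Errfi1 was lost in Vehicle against Sham (adjusted p = 0.0552). The numbers did not pair the mice: same-numbered mice correlated between -0.322 and 0.114.

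Over all genes, LJP against Vehicle gave 4 calls in edgeR, 2281 in DESeq2, 593 without the filter, 2 with the block or 2 groups, 3857 without Vehicle mouse 3 and 2095 without Vehicle mouse 4. LJP against Sham gave 834, 1467 in DESeq2, 4043 with 2 groups, 464 with the block and 393 to 2357 without single mice. No scaling moved the median of all genes by more than 0.08 on the log2 scale. With 4 mice a group, the intervals of the single genes printed above limit what can be said of differences that did not pass.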

Other observations

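Among 12 paralogues of the 9 genes, 11 of which were tested, 2 rose and 3 fell in Vehicle against Sham, with a median log2 fold change of -0.13. The 5 calls are a share near that of all genes (39.9%), so they are no result about the group. Tsc22d4, a relative of Tsc22d3, rose by 1.10 (SE 0.16, edgeR adjusted p = 0.000549), while Tsc22d3 itself did not pass the test. Of the pyruvate dehydrogenase kinases, Pdk2 rose by 0.32 (SE 0.09, edgeR adjusted p = 0.0177) and Pdk3 fell by 0.26 (SE 0.09, 0.0308), beside the rise of Pdk4. Pdk2 lost its call without Sham mouse 1 (edgeR adjusted p = 0.0608), and Pdk3 lost it in 4 of 12 fits that left out a mouse. The progesterone receptor gene Pgr fell by 0.52 (SE 0.10, edgeR adjusted p = 0.00266). None of the 11 passed the test in LJP against Vehicle, where Tsc22d4 (-0.58, edgeR adjusted p = 0.0689), Pgr (0.27, 0.12) and Tsc22d2 (-0.25, 0.147) had the smallest p (Tsc22d4 passed without Vehicle mouse 3 or 4, with edgeR adjusted p of 0.0153 and 0.031), and none passed against Sham.

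In none of 30 groups of 4 mice, over the 9 genes and the receptor ratio, was the highest or lowest mouse far from the rest by Dixon's test at the 95% level, where chance would flag about 1.5.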
